A study of Mus musculus with 6 samples.

Results

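Genes that set the pace of G1, the phase in which a cell commits to or holds back from division, were measured in sorted long-term hematopoietic stem cells. The set was named gene by gene: the CDK inhibitors Cdkn1b, Cdkn1c, Cdkn2c and Cdkn2d, the D-type cyclins Ccnd1, Ccnd2 and Ccnd3, the kinases Cdk4 and Cdk6, and the retinoblastoma gene Rb1. Of these 10 genes, 9 were matched by symbol among the 11779 genes analysed, and Cdk4 was not analysed here. All 9 passed the filter on low counts, which kept 10869 genes. Bone marrow came from female mice aged 8 weeks, and both groups carried 1 floxed and 1 normal allele of Myc. WT mice (c-Mycfl/+, n = 3 libraries) had no Cre, and HET mice (c-Mycfl/+Mx1Cre, n = 3) also carried Mx1-Cre, in which the interferon-responsive Mx1 promoter, active in many cell types besides blood cells, drives Cre. Deletion was induced with 3 intraperitoneal injections of poly(I:C) at 6 mg/kg, and whether WT mice received them too is not stated separately. Stem cells were sorted on the surface: they carried CD150, c-Kit and Sca-1, and lacked CD48 and lineage markers. The libraries are numbered 1, 3 and 4 in each group, and no label says whether each came from a separate mouse, so the tests measure the spread between libraries.

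D cyclins bind CDK4 or CDK6 and the active kinase phosphorylates the RB protein, which frees E2F factors to switch on genes of DNA replication. INK4 proteins (encoded here by Cdkn2c and Cdkn2d) block CDK4 and CDK6 themselves, and CIP/KIP proteins (Cdkn1b and Cdkn1c) bind cyclin-CDK complexes more broadly. Long-term stem cells rest outside the cycle most of the time, and p57, the product of Cdkn1c, and p27, the product of Cdkn1b, are known for holding them there. MYC is known to induce D cyclin genes and to oppose p27, which is why G1 genes are of interest when a Myc allele is deleted.

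Library totals ran from 4249490 to 9886223 counts, the largest in HET 1. The targeted gene Myc had 447.4, 427.4 and 541.8 CPM in WT 1, 3 and 4, while HET 1, 3 and 4 had 293.8, 386.7 and 372.0 CPM, so its libraries lay in the direction of their labels. CPM is the read count of a gene relative to the scaled total of its library. The counts cover the whole gene, and which reads lie inside the floxed segment was not analysed here. Of the sort markers, Kit (c-Kit) ranged from 1091 to 1258 CPM, Slamf1 (CD150) from 57.0 to 84.0 CPM and Ly6a (Sca-1) from 21.8 to 40.1 CPM over the 6 libraries. Cd48, the marker gated against, lay between 1.67 and 3.25 CPM in WT and between 3.67 and 8.96 CPM in HET. At these low levels its difference of 1.41 ± 0.61 log2 units (SE) was not called (edgeR adjusted p = 0.849). HET libraries wholly above WT were seen in 4.69% of all genes. The summed level of 11 of 12 listed neutrophil and monocyte genes, led by Lyz2 and Prtn3, was highest in WT 3. It was 462.4, 765.8 and 288.1 CPM in WT 1, 3 and 4, while HET 1, 3 and 4 had 599.6, 382.1 and 368.9 CPM. The sum of all 6 listed megakaryocyte genes, led by Vwf and Itga2b, was 753.6 to 768.9 CPM in WT and 899.6 to 1097 CPM in HET. Erythroid genes (4 of 8 listed, led by Epor and Hbb-bt) summed to at most 40.6 CPM in any library, and T and NK genes (3 of 7, led by Nkg7 and Cd4) to at most 29.96 CPM. These samples are bulk RNA, in which fewer cells of a type and less RNA per cell cannot be told apart. The part of other cells in the G1 gene levels was not tested.

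MYC with its partner MAX binds the E-box CACGTG, so the promoters of the members with the largest positive differences, Cdk6 and Cdkn1b, are shown first, a choice made after their values were seen. RefSeq promoters (GRCm38.p6) were matched for 6 of the 10 named genes, with 8 start sites in all, and the 250 bases before each start were searched for CACGTG, which reads the same on both strands. The motif was present in 2 of the 8 windows, once for Cdk6 and 4 times for Cdk4, against 6.02% of all 32851 promoter windows of that length. Ccnd1, Ccnd2, Cdkn1c and Rb1 had no matched promoter and were not searched. The Cdk6 match lies 220 to 215 bases before the start. Both stretches are on the plus strand, at chr5:3343643-3343731 for Cdk6, which is intronic to 1 GENCODE transcript of the gene and stops where an exon of a short alternative transcript begins, and at chr6:134920151-134920400 for Cdkn1b, which holds no annotated exon. They are printed in lower case with the E-box in capitals, and the Cdkn1b window holds no match to these letters.
Cdk6: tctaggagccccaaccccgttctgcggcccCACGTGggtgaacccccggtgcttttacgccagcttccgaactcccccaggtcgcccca
Cdkn1b: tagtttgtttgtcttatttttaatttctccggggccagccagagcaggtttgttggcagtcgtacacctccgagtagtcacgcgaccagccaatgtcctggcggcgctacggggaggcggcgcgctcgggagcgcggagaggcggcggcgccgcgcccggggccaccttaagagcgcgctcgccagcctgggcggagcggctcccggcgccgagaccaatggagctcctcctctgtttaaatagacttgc
A match is a description of the sequence, and binding was not measured.

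Across HET and WT, none of the 9 members was called higher or lower. By edgeR's quasi-likelihood test 0 of 9 passed an adjusted p of 0.05, against 0.258% of all genes tested (28 of 10869, made up of 0.0368% higher and 0.221% lower in HET). At an unadjusted p under 0.05 the count was also 0 of 9, against 5.22% of all genes, and DESeq2 and limma-voom called 0 as well. The 9 log2 fold changes ran from -0.27 for Cdkn2d to 0.42 for Cdk6, with 4 positive and 5 negative values and a median of -0.05, beside 0.0040 over all genes. In 1 member, Cdkn1b, the HET and WT libraries did not overlap, with HET above, which 4.69% of all genes showed (10.3% in either direction). The number of genes called in the whole table was itself sensitive to single libraries: leaving out WT 1 gave 11, leaving out HET 1 gave 68 and leaving out HET 4 gave 10.

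**Figure D1:**
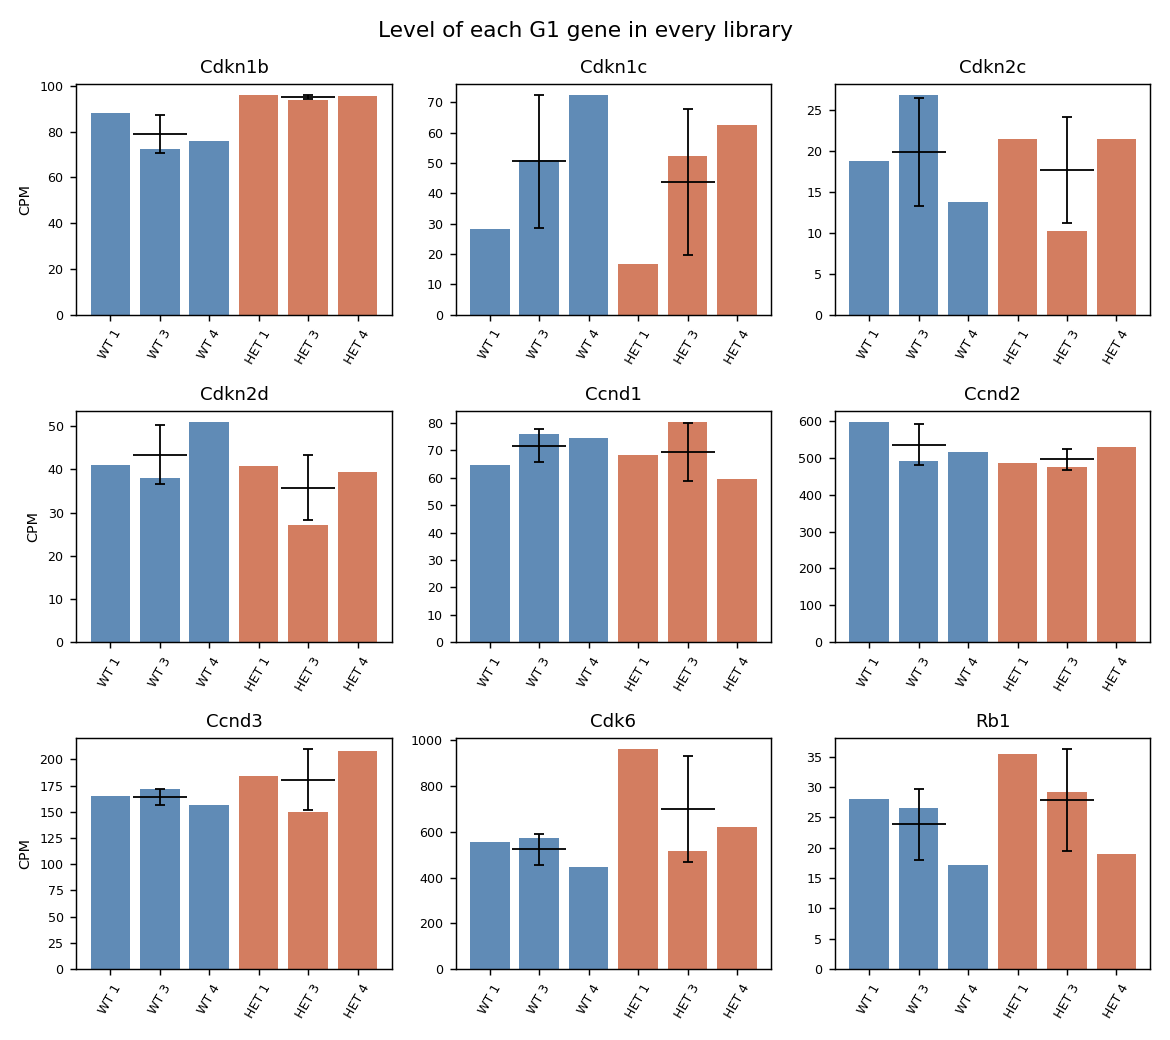
Level of each of the 9 members in every library, in CPM on a linear axis from 0 (blue bars WT, orange bars HET, black line and whiskers mean ± SD of the 3 libraries of a group). Cdkn1b is higher in the 3 HET libraries (94.0 to 95.9) than in the 3 WT libraries (72.3 to 88.2), and every other gene has overlapping groups.

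The CIP/KIP inhibitors differed in how evenly they were expressed. Cdkn1b (ENSMUSG00000003031; GRCm38 chromosome 6, 134920401 to 134925513, plus strand), which encodes p27, measured 88.2, 72.3 and 76.1 CPM in WT 1, 3 and 4, while HET 1, 3 and 4 had 95.9, 94.0 and 95.5 CPM. All 3 HET libraries were high and nearly equal, and the gap to WT 1 was smaller than the spread within WT. Averaged over 3 libraries each, WT stood at 78.9 ± 8.33 CPM and HET at 95.1 ± 1.01 CPM (± SD). The fitted HET minus WT difference was 0.27 ± 0.15 log2 units (SE; 95% interval -0.04 to 0.58; edgeR adjusted p = 0.979). An exact two-sided permutation test on log2 values gave p = 0.1, the smallest that 3 against 3 libraries allow. Every gene with separated groups gives this value, so the test adds nothing to the separation itself. On the fold scale the interval ran from 0.974 to 1.49. The summed megakaryocyte genes also lay higher in every HET library, and their part in the Cdkn1b level was not tested. Of the 1000 genes nearest to Cdkn1b in level, 11.9% had a smaller within-group SD of log2 CPM. The coefficient of variation was 10.6% between WT libraries and 1.06% between HET libraries. Counting error alone gives 5.60% at the lowest count of Cdkn1b, 319 in WT 4. The closeness of the 3 HET libraries is therefore no measure of how steady the gene is.

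Cdkn1c (ENSMUSG00000037664; chromosome 7, 143458339 to 143461050, minus strand) encodes p57 and is an imprinted gene. It measured 28.3, 51.0 and 72.3 CPM in WT 1, 3 and 4, while HET 1, 3 and 4 had 16.8, 52.3 and 62.4 CPM. Library 1 was the lowest of its group in both genotypes, and the groups overlapped over most of their range. Averaged over 3 libraries each, WT stood at 50.5 ± 22.0 CPM and HET at 43.8 ± 24.0 CPM (± SD). The fitted HET minus WT difference was -0.22 ± 0.62 log2 units (SE; edgeR adjusted p = 0.995). The fold interval of 0.280 to 2.63 spans both a large fall and a large rise. The within-group SD of 0.86 log2 units exceeded that of 99.7% of the 1000 genes nearest in level, whose median was 0.23. Its lowest count was 157, for which counting error alone gives a coefficient of variation of 7.98%, against 43.5% observed between WT libraries and 54.7% between HET libraries. Without HET 1 the log2 fold change was 0.19, without WT 4 it was 0.12, and without HET 4 it was -0.57, none of them past the threshold. An antisense transcript, Gm44732, covers 30.7% of the exonic bases of Cdkn1c, and with no strand setting given its reads cannot be told apart from those of Cdkn1c.

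The INK4 inhibitors had lower HET means without separation of the groups. Cdkn2d (ENSMUSG00000096472; chromosome 9, 21288410 to 21291407, minus strand), which encodes p19-INK4D, measured 41.1, 38.1 and 51.0 CPM in WT 1, 3 and 4, while HET 1, 3 and 4 had 40.8, 27.04 and 39.4 CPM. HET 3 was the lowest library, and HET 1 and HET 4 lay above WT 3. The fitted difference was -0.27 ± 0.22 log2 units (SE; 95% interval -0.73 to 0.18; edgeR adjusted p = 0.995). Cdkn2c (ENSMUSG00000028551; chromosome 4, 109660876 to 109667189, minus strand) encodes p18-INK4C, whose loss in mice is known to expand the stem cell pool. It measured 18.8, 26.9 and 13.8 CPM in WT 1, 3 and 4, while HET 1, 3 and 4 had 21.4, 10.2 and 21.4 CPM. Each group held 1 library far from the rest, WT 3 at the top and HET 3 at the bottom, and the fitted difference of -0.16 ± 0.33 log2 units (SE; edgeR adjusted p = 0.995) became 0.13 without WT 3 and 0.11 without HET 3. Counts of Cdkn2c were as low as 47, at which counting error alone gives a coefficient of variation of 14.6%, against 33.3% observed between WT libraries and 36.5% between HET libraries.

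The D cyclins showed no shift between the groups that passed the test, and Ccnd2 and Ccnd3 had the narrowest intervals of all members. Ccnd2 (ENSMUSG00000000184; chromosome 6, 127125162 to 127152193, minus strand), which encodes cyclin D2 and is a known MYC target, measured 598.2, 492.9 and 516.1 CPM in WT 1, 3 and 4, while HET 1, 3 and 4 had 487.6, 474.3 and 528.9 CPM. WT 1 was the highest, and HET 4 lay above both WT 3 and WT 4. Averaged over 3 libraries each, WT stood at 536 ± 55.4 CPM and HET at 497 ± 28.4 CPM (± SD). The fitted HET minus WT difference was -0.11 ± 0.11 log2 units (SE; edgeR adjusted p = 0.995). Its fold interval was 0.795 to 1.08. The fitted Myc level was 0.742 of WT, with a fold interval of 0.621 to 0.888 that overlaps the one of Ccnd2. Whether Ccnd2 and Myc changed by different amounts was not tested. Without WT 1 the Ccnd2 log2 fold change was -0.02.

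Ccnd1 (ENSMUSG00000070348; chromosome 7, 144929931 to 144939925, minus strand), the gene of cyclin D1, measured 64.8, 75.9 and 74.4 CPM in WT 1, 3 and 4, while HET 1, 3 and 4 had 68.4, 80.5 and 59.4 CPM. Both the highest and the lowest library belonged to HET, and the fitted difference was -0.05 ± 0.17 log2 units (SE; 95% interval -0.40 to 0.30; edgeR adjusted p = 0.995). Without HET 4 the value was 0.06. The oppositely transcribed gene Oraov1 (LTO1 in GENCODE) shares 23.4% of the exonic bases of Ccnd1, and its own level was 32.2 ± 5.46 CPM over the WT libraries and 35.3 ± 3.86 CPM over the HET libraries (± SD, n = 3 each). Ccnd3 (ENSMUSG00000034165; chromosome 17, 47505051 to 47599691, plus strand), the gene of cyclin D3, measured 165.3, 171.4 and 156.2 CPM in WT 1, 3 and 4, while HET 1, 3 and 4 had 184.6, 150.0 and 207.9 CPM. HET 3 was the lowest and HET 4 the highest of all 6 libraries. The fitted difference was 0.14 ± 0.13 log2 units (SE; 95% interval -0.13 to 0.41; edgeR adjusted p = 0.995). Ccnd3 has a processed pseudogene, Ccnd3-ps, and the handling of reads from near-identical copies is not stated, so its level carries that uncertainty.

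**Figure D2:**
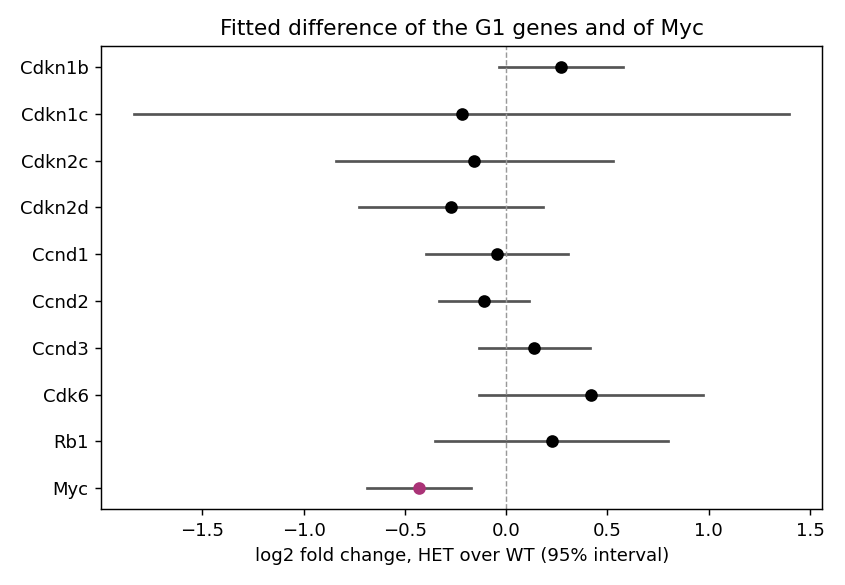
Fitted log2 fold change of HET over WT for the 9 members and for Myc (points), with 95% intervals from edgeR (lines) and 0 as the dashed line. All 9 member intervals include 0, the widest that of Cdkn1c (-1.84 to 1.40), while the unadjusted interval of Myc (-0.69 to -0.17) does not. Myc was not called either (edgeR adjusted p = 0.312).

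Cdk6 (ENSMUSG00000040274; chromosome 5, 3341485 to 3531008, plus strand) had the largest fitted difference of the members. CDK6 is the D cyclin kinase whose amount is known to influence how fast a resting stem cell enters the cycle. It measured 553.3, 572.3 and 446.9 CPM in WT 1, 3 and 4, while HET 1, 3 and 4 had 962.0, 515.5 and 622.6 CPM. HET 1 stood far above the other 5 libraries, whereas HET 3 lay below WT 1 and WT 3. Averaged over 3 libraries each, WT stood at 524 ± 67.6 CPM and HET at 700 ± 233 CPM (± SD). The fitted HET minus WT difference was 0.42 ± 0.23 log2 units (SE; 95% interval -0.13 to 0.97; edgeR adjusted p = 0.987). Without HET 1 the difference was 0.12 on the log2 scale, and without HET 3 it was 0.60, neither of them past the threshold. Such a spread is unusual at this level: the within-group SD of 0.35 log2 units exceeded that of 96.5% of the 1000 genes nearest in level. With at least 1874 counts in each library, counting error alone is at most 2.31%.

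Rb1 (ENSMUSG00000022105; chromosome 14, 73183673 to 73325822, minus strand), the substrate at the end of this chain, measured 28.0, 26.5 and 17.2 CPM in WT 1, 3 and 4, while HET 1, 3 and 4 had 35.5, 29.2 and 18.9 CPM. The libraries numbered 4 were the lowest of each group and HET 1 was the highest. The fitted difference was 0.23 ± 0.28 log2 units (SE; 95% interval -0.35 to 0.80; edgeR adjusted p = 0.995), and 0.0021 without HET 1. Rb1 shares exonic bases with the opposite-strand genes Rcbtb2 (8.11%) and Lpar6 (6.78%), and without a strand setting such reads cannot be told apart.

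HET 1 was also set apart in genes of the cycle itself. It was the highest library for 3 members (Cdkn1b, Cdk6 and Rb1) and the lowest for Cdkn1c, and it was the highest for 17 of 20 S phase and mitosis genes. Their summed level was 3110, 3476 and 2841 CPM in WT 1, 3 and 4, while HET 1, 3 and 4 had 4516, 2529 and 3027 CPM. HET 3 was the lowest library for 15 of these 20 genes and for 4 members (Cdkn2c, Cdkn2d, Ccnd2 and Ccnd3). HET 1 had the largest total count and the highest sum of megakaryocyte genes, 1097 CPM, where HET 3 had 899.6 and HET 4 had 927.6 CPM. Itga2b had 560.5, 364.0 and 390.5 CPM in HET 1, 3 and 4, and Pf4 had 112.1, 32.5 and 49.5 CPM. Of the 6 megakaryocyte genes only Vwf was not highest in HET 1, with 384.8, 478.5 and 463.8 CPM in HET 1, 3 and 4. All 6 had positive log2 fold changes, with 0 calls. The part of these differences in the levels of Cdk6 and Cdkn1c was not tested.

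**Figure D3:**
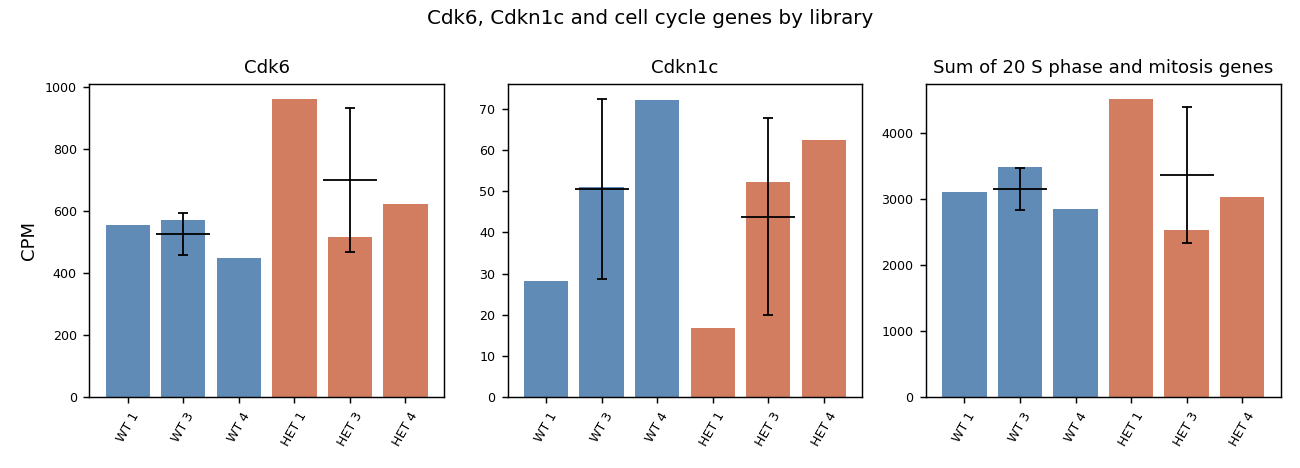
CPM of Cdk6, of Cdkn1c and of the sum of 20 S phase and mitosis genes in each library (blue WT, orange HET, black line and whiskers mean ± SD of 3 libraries, axes from 0). HET 1 has the highest Cdk6 (962.0), the lowest Cdkn1c (16.8) and the highest sum (4516).

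To compare genes with one another, CPM was divided by the exonic length of each gene in kilobases. On this scale Ccnd2 had the highest mean level over the 6 libraries, 54.9 CPM per kb, followed by Cdk6 at 43.8, Cdkn2d at 25.1, Cdkn1c at 23.1, Ccnd3 at 19.7, Cdkn1b at 19.1 and Ccnd1 at 14.99 CPM per kb. Cdkn2c (6.99) and Rb1 (4.30) were lowest. Neighbours in this order had overlapping library ranges, with 1 exception: every library had more Ccnd1 (12.6 to 17.1) than any had Cdkn2c (3.82 to 10.01). The length joins all annotated exons, so a gene with many alternative exons is placed lower than its main transcript alone would be.

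On this length scale Ccnd2 had the largest share of the D cyclin sum in every library. The shares depend on the lengths used, which join 22 annotated exon records for Ccnd2 and 89 for Ccnd3. Shares on the lengths of main transcripts were not computed. Ccnd2 made up 62.5% ± 3.34 of the length-scaled D cyclin sum in WT and 59.9% ± 0.77 in HET, Ccnd3 20.6% ± 1.38 and 23.3% ± 2.78, and Ccnd1 16.8% ± 2.20 and 16.8% ± 3.28 (SD, n = 3 each). All 3 shares overlapped between groups. The D cyclin sum was 90.9 ± 4.58 CPM per kb in WT and 88.2 ± 4.02 in HET, and the sum of the 4 inhibitors 77.1 ± 11.8 and 71.7 ± 11.3 CPM per kb (SD, n = 3 each). Among the inhibitors Cdkn1c ranged most, from 13.0% of their sum in HET 1 to 39.5% in WT 4. The ratio of the inhibitor sum to the D cyclin sum was 0.690, 0.853 and 1.01 in WT 1, 3 and 4, while HET 1, 3 and 4 had 0.723, 0.796 and 0.914. It was lowest in library 1 and highest in library 4 in both groups, which overlapped.

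**Figure D4:**
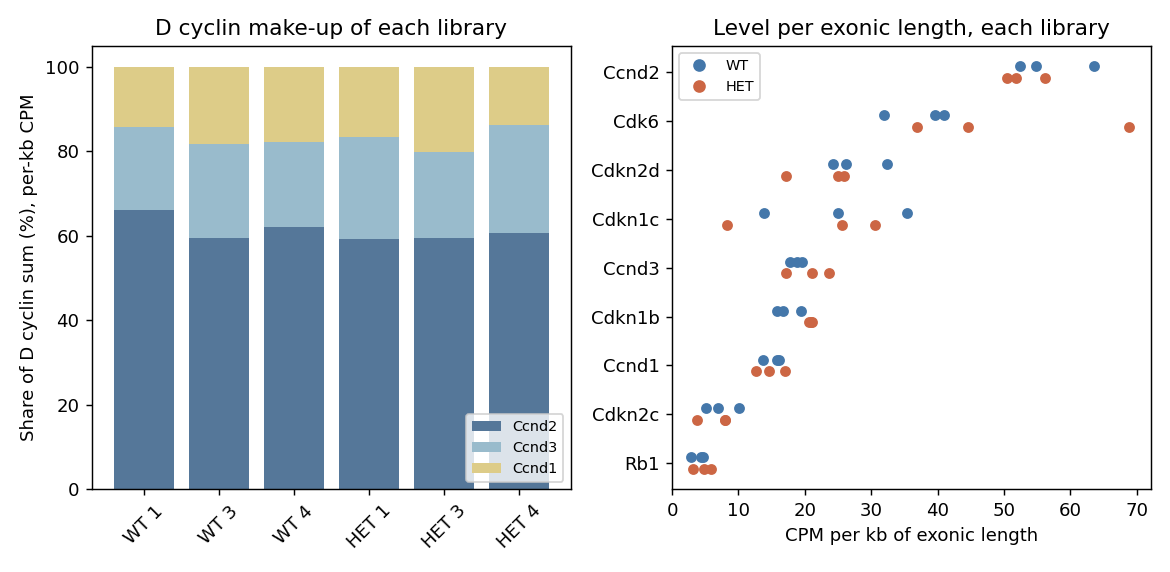
Left, share of each D cyclin in the length-scaled D cyclin sum of every library, in percent; right, CPM per kb of exonic length of each member in each library (blue points WT, orange points HET). Ccnd2 takes between 59.3% and 66.1% of the sum in all 6 libraries and Rb1 is the lowest gene on average.

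The rest of the pathway was read from 63 genes in 8 lists, of which 60 were tested. Of these 60, with p adjusted over all genes tested, edgeR called 0 higher and 0 lower, against 0.258% of all genes, and DESeq2 and limma-voom also called 0 of the 60. An unadjusted p under 0.05 was reached by 1 of the 60, Cdkn1a, against 5.22% of all genes. The median log2 fold change of the 60 was 0.01, beside 0.0040 over all genes, with 32 positive and 28 negative values. The HET libraries lay wholly below WT in 2 of the 60, against 5.64% of all genes, and wholly above in 0 of the 60, against 4.69%.

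Cdkn1a, which encodes the CIP/KIP inhibitor p21, a p53 target, was the one other inhibitor analysed. It measured 65.3, 40.1 and 34.8 CPM in WT 1, 3 and 4, while HET 1, 3 and 4 had 31.0, 11.3 and 8.77 CPM. Every HET library was below every WT library, HET 1 only just. The fitted difference was -1.41 ± 0.48 log2 units (SE; edgeR adjusted p = 0.788, unadjusted p = 0.0189). Without HET 1 the gene was called, at -2.22 ± 0.31 log2 units (SE; edgeR adjusted p = 1.56e-04).

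Downstream of the members, the cyclin E group held 4 tested genes with a median of 0.13: Ccne1 had 0.41 ± 0.47, Cdc25a, the phosphatase that activates CDK2, 0.19 ± 0.16, Cdk2 0.07 ± 0.13 and Ccne2 -0.15 ± 0.38 (log2 fold change ± SE). Among 12 pocket, E2F and DP genes the median was 0.01. Those of smallest p were Rbl1 (p107) at 0.23 ± 0.17, E2f1 at 0.25 ± 0.22, E2f8 at 0.31 ± 0.27 and E2f5 at -0.42 ± 0.44 (log2 fold change ± SE). The 6 genes of the MuvB complex and its kinase DYRK1A, which with p107 or p130 hold cycle genes silent in resting cells, had a median of -0.0035. Dyrk1a was at 0.16 ± 0.12, Lin37 at -0.22 ± 0.26, Lin9 at -0.24 ± 0.29 and Lin54 at 0.19 ± 0.24 (log2 fold change ± SE). None of these 22 genes passed.

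The CDK-activating kinase genes Cdk7 (-0.20 ± 0.23), Ccnh (0.07 ± 0.18) and Mnat1 (-0.01 ± 0.20) also did not pass (log2 fold change ± SE). Of 11 tested genes for turnover of p27 and the cyclins the median was 0.0061. Fbxw7, which targets cyclin E and MYC for destruction, had 83.7, 65.3 and 82.8 CPM in WT 1, 3 and 4, where HET 1, 3 and 4 had 65.3, 61.7 and 59.0 CPM, a difference of -0.31 ± 0.17 log2 units (SE; adjusted p = 0.957 by edgeR). WT 3 and HET 1 were level to within the rounding of these values. Skp2, the receptor that marks p27 for destruction, had -0.14 ± 0.27, and the scaffold gene Cul1 0.24 ± 0.16 (log2 fold change ± SE). Foxo factors, which are known to switch on Cdkn1b and keep stem cells quiescent, had values of -0.42 ± 0.22 for Foxo1, -0.31 ± 0.18 for Foxo4 and -0.05 ± 0.10 for Foxo3 (log2 fold change ± SE), with overlapping libraries and no call.

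For the 20 S phase and mitosis genes the median log2 fold change was 0.10, with 13 positive and 7 negative values and 0 calls. The ribonucleotide reductase gene Rrm2 was at 0.35 ± 0.26, the replication helicase genes Mcm3 and Mcm2 at 0.16 ± 0.13 and 0.19 ± 0.20, the mitotic cyclin gene Ccnb2 at 0.22 ± 0.22 and the proliferation marker Mki67 at -0.02 ± 0.25 (log2 fold change ± SE). HET 1, the highest library for 17 of the 20, enters each of these values.

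**Figure D5:**
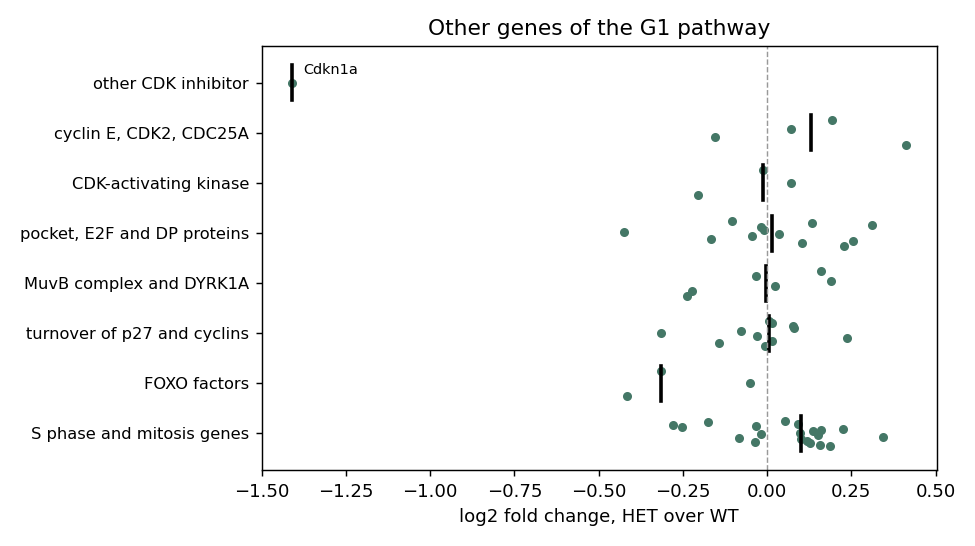
Log2 fold change of HET over WT for the 60 other tested G1 pathway and cycle genes (points), grouped by list, with the median of each list as a black bar and 0 as the dashed line. Most points lie near 0, and Cdkn1a, at -1.41, is the farthest from it.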

How the data were processed

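RNA-seq of 6 libraries was analysed. The deposited table holds whole-number read counts per gene. The submitters' processing notes name the mm10 build, STAR 2.5.2b, FastQC, limma and edgeR without role or order. For the read counter, annotation and strand setting nothing is given in the sources used here. The protocol fields of the labels concern human biopsies from an unrelated study and were set aside. Each of the 11779 genes exceeded 1.01 CPM in at least 2 libraries, so low genes had been removed before deposit.

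Groups came from sample titles and match the genotype labels; titles call HET libraries KO. Genes were kept by filterByExpr (910 removed), scaled by TMM and tested with the two-sided quasi-likelihood F test of edgeR 4.0.16 (R 4.3.3), with group as the only term and Benjamini-Hochberg adjustment over 10869 genes (threshold 0.05). Standard errors and intervals come from the F statistic, with no adjustment of intervals for the number of genes. Positions and exonic lengths are from GENCODE M21 on GRCm38. Permutation tests used log2(CPM + 0.5). The code was tested on simulated counts. Alternatives were RLE and upper quartile scaling, no filter, a stricter filter (5 CPM in 3 libraries), DESeq2 1.42.0, limma-voom (limma 3.58.1), the library number as a block, and leaving out each library. Members and lists were chosen with earlier results of these data known. Named were all members, Myc, up to 4 pathway genes of smallest p per list, the sort markers and the 2 highest genes of other marker lists; Mki67 and the genes overlapping members were added after values were seen. The result of 1 marker list is not reported here. Intervals of counting error assume independent reads, and molecular identifiers are not mentioned in the labels.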

Additional observations from a re-analysis of the deposited data

How the results depend on the processing

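None of the 9 members was called under any of the 13 alternatives. Log2 fold changes of members in the fits that left out 1 library ranged from 0.21 to 0.36 for Cdkn1b, -0.57 to 0.19 for Cdkn1c, -0.35 to 0.13 for Cdkn2c, -0.38 to -0.11 for Cdkn2d, -0.16 to 0.06 for Ccnd1, -0.16 to -0.02 for Ccnd2, 0.03 to 0.26 for Ccnd3, 0.12 to 0.60 for Cdk6 and 0.0021 to 0.44 for Rb1. The sign turned for Cdkn1c without HET 1 (0.19) or WT 4 (0.12), for Cdkn2c without WT 3 (0.13) or HET 3 (0.11) and for Ccnd1 without HET 4 (0.058); the cause was not tested. Myc ranged from -0.50 to -0.32 and was not called under any of the 13 alternatives. In pathway genes, Cdkn1a alone was called, without HET 1 and with the replicate block, so the number called lower went from 0 to 1 in both. With the replicate block its difference was -1.59 ± 0.25 log2 units (SE; edgeR adjusted p = 0.0031). Over all genes, 4 were higher and 24 lower, against 8 and 51 with DESeq2. Leaving out 1 library gave 2 to 16 higher and 8 to 52 lower. With the replicate block 44 were lower and 5 higher. Deviations from the group means correlated at 0.11, -0.05 and 0.07 for the shared library numbers 1, 3 and 4. WT 1 and WT 3 both correlated best with HET 1 (0.11 and 0.09), and WT 4 with HET 3 (0.12). These values do not settle whether the numbers pair the libraries. Counting error is largest for Cdkn2c and Rb1, with lowest counts of 47 and 72.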
